A study of Mus musculus with 9 samples.

Results

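*Hmgcs1*, *Idi1*, *Fdft1*, *Sqle*, *Lss*, *Cyp51*, *Insig1* and *Srebf2* belong to the program by which a cell makes its own cholesterol. They were chosen by name, and all 8 were found among the 15184 genes of the table. The cells were mouse embryonic fibroblasts (MEFs), connective tissue cells grown from embryos, kept in medium with fetal bovine serum. PolyA+ RNA was measured by RNA-Seq in 3 Empty libraries, labelled with the genotype Empty vector, and in 3 libraries each labelled SAM1 and SAM2, both with the genotype Hnrnpk_SAM. SAM stands for synergistic activation mediator, in which a catalytically dead Cas9 carries transcriptional activators to a promoter, here that of *Hnrnpk*, an RNA-binding protein gene. By the methods of the study, the control cells carried the same vector with a nontargeting guide, although the letters printed there for that guide are the same as for a guide to *Hnrnpk*, so what the control carried cannot be settled from them. All cells had gone through transduction and antibiotic selection. The labels do not say which guide SAM1 and SAM2 carry, how many clones or embryos stand behind them, or whether libraries of a group came from separate cultures. The p-values therefore measure only the spread between these libraries, which may be technical.

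Cholesterol synthesis starts from acetyl-CoA, passes through mevalonate and the isoprenoid units, and reaches squalene, which is oxidized, closed into the ring of lanosterol and trimmed to cholesterol. The pathway is switched at the level of transcription by SREBP-2, the product of *Srebf2*. When sterols are ample, the INSIG proteins hold SREBP-2 and its escort SCAP in the endoplasmic reticulum, and when sterols are short, SREBP-2 is cleaved and its N-terminal part enters the nucleus. There it binds sterol regulatory elements (SREs), usually beside sites for NF-Y, which reads CCAAT, and Sp1, which reads GC boxes. *Insig1* is itself a target of SREBP-2.

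The promoters of the 8 genes were searched for fixed letters that stand for the sites this control reads. For each gene the window ran from 250 bases before to 50 bases after the start of its canonical GENCODE transcript on GRCm39, and was searched on both strands. The SRE searched was TCACNCCAC, and a relaxed form, CACNCCAC, lies within every SRE match. Among 12999 promoters of protein-coding genes in the table, 1.23% held the SRE and 6.81% the relaxed form. *Hmgcs1* was the only gene of the 8 with the SRE, and *Sqle* and *Insig1* held the relaxed form, so that 5 of the 8 held neither in this window. Only these exact letters were counted, so a site that departs from them was missed. The *Srebf2* window, for example, holds tcaccccat, which departs from the SRE searched in its last letter. A gene without a match may therefore still hold such a site. Of 15 other synthesis enzymes, 0 held the SRE and 1 the relaxed form, and of 14 genes of fatty acid synthesis, 3 held the SRE and 4 the relaxed form. The windows below are shown for these matches, in the direction of transcription, with the match in capitals.

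Hmgcs1 (chr13:120151740-120151769, + strand, match 232 bases before the start): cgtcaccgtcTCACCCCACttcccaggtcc

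Sqle (chr15:59186673-59186702, + strand, match 198 bases before the start): ggccccgcgccCACCCCACgcacccgcccc

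Insig1 (chr5:28276145-28276174, + strand, match 171 bases before the start, read on the opposite strand): ccacccccccgGTGGCGTGtgcatacgtca

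CCAAT, which appears as ATTGG where it lies on the opposite strand, was found in all 8 promoters, in 10 of the 15 other synthesis enzymes, in 6 of the 14 genes of fatty acid synthesis and in 39.5% of all promoters. Fdft1 held 4 matches, Idi1 3, Hmgcs1 and Sqle 2 each, and the other genes 1 each. The first match of each gene in the direction of transcription is printed because CCAAT was the only motif of those searched that all 8 shared. The GC box GGGCGG was in 7 of the 8 (*Fdft1* lacked it in this window) and in 57.7% of all promoters. These matches are letters in a window and not measured binding.

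Hmgcs1 (chr13:120151830-120151859, + strand, 140 bases before the start): tccccgcctctcATTGGctgaaagcggatc

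Idi1 (chr13:8935864-8935893, + strand, 43 bases before the start): ggcttgtgctagATTGGcaattggctggag

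Fdft1 (chr14:63415526-63415555, - strand, 101 bases before the start): ctctgctgggtaCCAATcgtgttcgctggc

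Sqle (chr15:59186753-59186782, + strand, 117 bases before the start): gcgccgcccgccATTGGacaaacgctctat

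Lss (chr10:76367365-76367394, + strand, 13 bases before the start): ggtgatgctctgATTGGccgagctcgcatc

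Cyp51 (chr5:4154709-4154738, - strand, at base 21 counted from the start as 1): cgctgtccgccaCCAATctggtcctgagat

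Insig1 (chr5:28276182-28276211, + strand, 133 bases before the start): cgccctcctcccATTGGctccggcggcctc

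Srebf2 (chr15:82031323-82031352, + strand, 47 bases before the start): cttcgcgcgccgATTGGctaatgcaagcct

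The values are normalized counts, that is, reads per gene divided by a size factor for each library. Reads on listed genes ranged from 41759636 to 49026626 per library, and log2 values of libraries of the same group correlated with r of 0.995 to 0.997 across genes. The targeted gene did not show the rise that the label implies in the normalized counts as deposited. The study itself reported raised *Hnrnpk* RNA by qRT-PCR and raised protein by Western blot in its SAM MEFs. Whether those cells were the same cultures as these libraries is not stated. *Hnrnpk* had a normalized count of 25773 ± 621 (SD, n = 3) in Empty, 23922 ± 264 in SAM1 and 26563 ± 321 in SAM2. It was lower in SAM1 (log2 fold change -0.11, limma adjusted p = 0.00252) and not distinguishable from Empty in SAM2 (0.044, 95% interval -0.014 to 0.10, limma adjusted p = 0.159). Under quantile normalization it turned to 0.094 in SAM1 (limma adjusted p = 0.00502) and rose by 0.22 in SAM2 (limma adjusted p = 4.6e-06), so its direction depends on the scaling. SAM1 and SAM2 therefore stand for the libraries labelled so. All 10 fibroblast markers were in the table, with a summed normalized count of 1022260 to 1115776 in Empty, 843472 to 903972 in SAM1 and 1146538 to 1185208 in SAM2. *Fn1* had the highest mean of them in each group (395009, 335985 and 452872). By limma (adjusted p under 0.05), 8 of the 10 were lower and 2 higher in SAM1, and 4 were lower and 3 higher in SAM2. Of all genes, 36.9% were lower and 37.3% higher in SAM1, and 35.3% lower and 35.2% higher in SAM2. Of the other cell types checked, the epithelial list (2 of 5 markers in the table) summed to 377 to 411 in Empty, 3715 to 3857 in SAM1 and 230 to 253 in SAM2, and the endothelial list (4 of 5) to 301 to 357, 4613 to 4988 and 638 to 689. *Cldn4* and *Kdr* carried most of the SAM1 sums, while *Epcam*, *Krt5*, *Krt14* and *Emcn* were not in the table. In Empty, SAM1 and SAM2, the haematopoietic list (3 of 5) summed to 607 to 728, 944 to 977 and 695 to 739. In the same order, the muscle list (1 of 5) lay at 44.4 to 83.0, 90.8 to 111 and 223 to 245. The adipocyte list (2 of 5) lay at 971 to 978, 2959 to 3380 and 1417 to 1480. Of these 3 lists, *Ptprc*, *Adgre1*, *Myod1*, *Myog*, *Actc1*, *Ckm*, *Adipoq*, *Plin1* and *Cidec* were not in the table. The part of the marker lists in the results that follow was not tested. In bulk RNA, fewer cells of a type and less RNA per cell cannot be told apart.

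The first question was how the 8 genes stood in each line against Empty. In SAM1, 6 were lower, 1 was higher and 1 did not pass the test (limma on log2(normalized count + 1), Benjamini-Hochberg adjustment over all genes, threshold 0.05). In SAM2, 5 were lower, 2 were higher and 1 did not pass. Under quantile normalization the split was 5 lower and 3 higher in each line. In that setting 6005 of the 15184 genes were lower and 5213 higher in SAM1, and 5620 lower and 5053 higher in SAM2. The background was broad in the main test too. There, 74.3% of all genes passed in SAM1 (37.3% higher and 36.9% lower), and 70.5% passed in SAM2 (35.2% higher and 35.3% lower). A pass in either direction is therefore close to what most genes showed, and the size and direction carry the description. The median log2 fold change of the 8 genes was -0.38 in SAM1 and -0.49 in SAM2, beside 0.0093 and -0.0015 over all genes. *Hmgcs1*, *Idi1*, *Lss*, *Cyp51* and *Insig1* were lower in both lines, as were 26.4% of all genes. All 8 lie in the top 10% of genes by mean level, and in that range the median was -0.12 in SAM1 and -0.086 in SAM2, with 53.5% and 50.1% of its 1519 genes lower. Both comparisons use the same 3 Empty libraries, so they are not independent of each other.

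**Figure D1:**
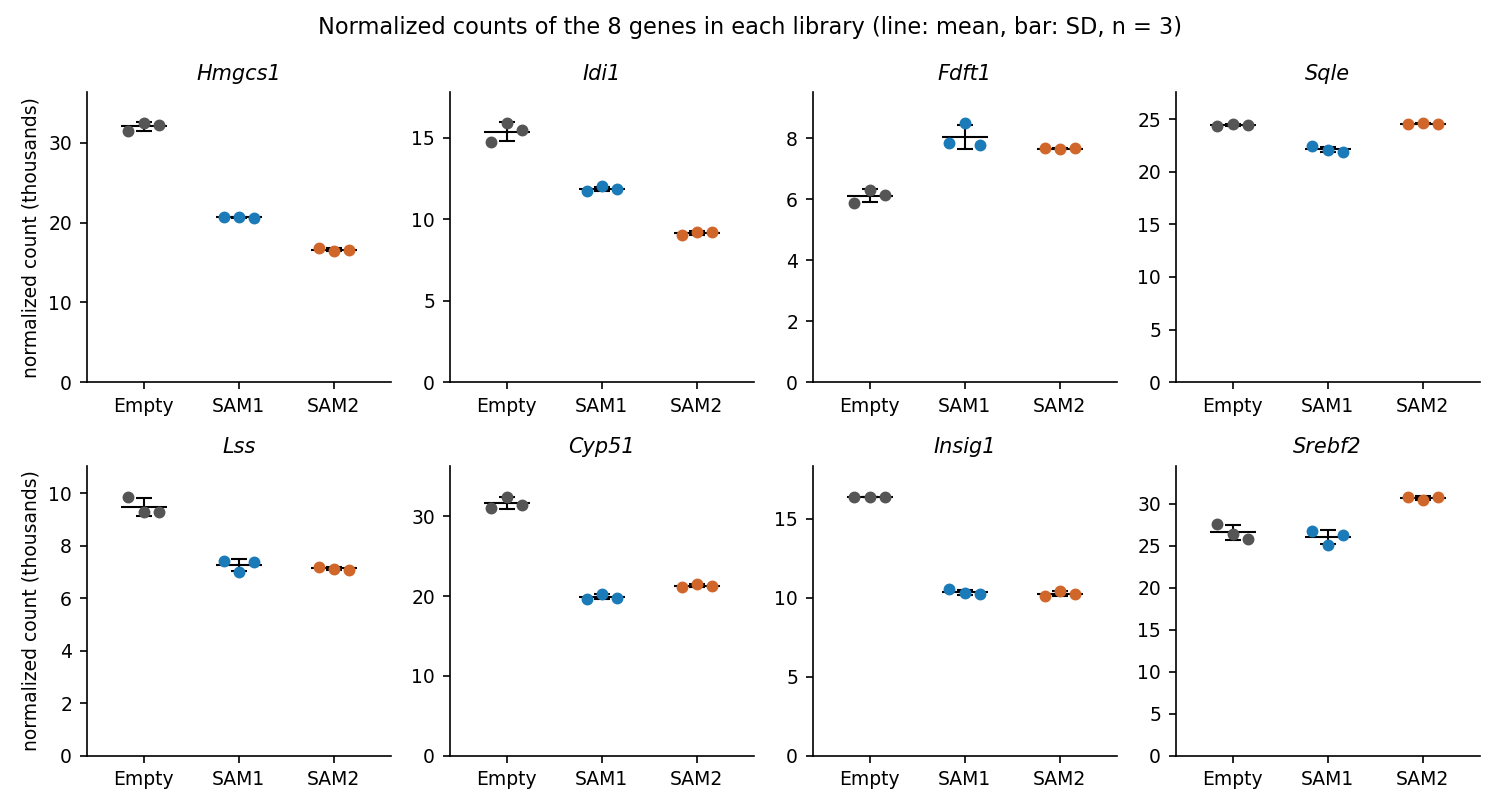
Normalized counts (linear axes from 0) of the 8 genes in each of the 9 libraries, with the mean as a line and the SD as a bar (n = 3 per group). *Hmgcs1* and *Idi1* stepped down from Empty to SAM1 and again to SAM2, *Cyp51* and *Insig1* lay below Empty in both lines, *Fdft1* lay above Empty in both, and *Srebf2* stood highest in SAM2.

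*Hmgcs1*, which encodes the cytosolic synthase that makes HMG-CoA (chr13:120151915-120170470, + strand), fell the furthest of the 8 in SAM2. Its normalized counts were 31407, 32458 and 32241 in Empty, 20690, 20654 and 20599 in SAM1, and 16785, 16488 and 16560 in SAM2. No library of one group overlapped another group. The mean was 35.5% lower in SAM1 (log2 fold change -0.63, SE 0.025, limma adjusted p = 5.9e-11) and 48.1% lower in SAM2 (-0.95, SE 0.025, limma adjusted p = 2.2e-12). The lines differed from each other by -0.31 (SAM2 minus SAM1, limma adjusted p = 1.8e-07).

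*Idi1* encodes the isomerase that turns isopentenyl diphosphate into dimethylallyl diphosphate (chr13:8935537-8942487, + strand). It had normalized counts of 14770, 15906 and 15460 in Empty, 11760, 12016 and 11859 in SAM1, and 9015, 9198 and 9242 in SAM2. The order was the same as for *Hmgcs1*, with all 3 groups apart. The log2 fold change was -0.37 in SAM1 (limma adjusted p = 1.0e-07) and -0.75 in SAM2 (limma adjusted p = 1.3e-10), and SAM2 lay 0.38 below SAM1 (log2 fold change -0.38, limma adjusted p = 2.3e-07). The annotation holds 5 named *Idi1* pseudogenes, so reads shared with these copies make its count less certain than the others.

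*Fdft1*, the gene of squalene synthase, the first enzyme committed to sterols (chr14:63382189-63417027, - strand), was the only one of the 8 that was higher in both lines, although under quantile normalization *Sqle* (0.066 and 0.17) and *Srebf2* (0.19 and 0.40) were too. Normalized counts were 5880, 6307 and 6144 in Empty, 7851, 8498 and 7775 in SAM1, and 7675, 7635 and 7676 in SAM2. Every SAM library lay above every Empty library, and the SAM1 libraries above the SAM2 libraries. The mean was 31.6% higher in SAM1 (log2 fold change 0.40, SE 0.037, limma adjusted p = 4.6e-07) and 25.4% higher in SAM2 (0.33, limma adjusted p = 3.6e-06). The difference between the lines was -0.069 with a 95% interval of -0.15 to 0.012 (limma adjusted p = 0.128). Under quantile normalization this difference passed (-0.12, limma adjusted p = 0.0293). The exons of *Fdft1* overlap those of *Ctsb*, on the opposite strand, over 1184 bases, and *Ctsb* was also higher in both lines (0.45 and 0.41). The kit marks strand, but whether the counting used it is not given in the sources used here, so reads of this overlap may not be told apart.

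*Sqle* encodes squalene epoxidase, the first oxygen-requiring step (chr15:59186869-59203043, + strand). Its normalized counts of 24394, 24566 and 24485 in Empty, 22421, 22058 and 21912 in SAM1, and 24577, 24629 and 24543 in SAM2 placed SAM1 below the others. It fell by 9.6% in SAM1 (log2 fold change -0.15, SE 0.023, limma adjusted p = 8.3e-05), a direction that turned under quantile normalization (0.066, limma adjusted p = 0.0194). In SAM2 it was level with Empty within the test (0.0060, 95% interval -0.045 to 0.057, limma adjusted p = 0.834). SAM2 exceeded SAM1 by 0.15 (limma adjusted p = 0.00010). Its exons overlap *Washc5* on the opposite strand over 470 bases, and *Washc5* was higher by 0.53 and 0.78 in SAM1 and SAM2.

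*Lss*, the gene of lanosterol synthase, which closes the rings (chr10:76367298-76392976, + strand), fell to a similar level in both lines. Normalized counts were 9881, 9298 and 9280 in Empty, 7419, 6995 and 7382 in SAM1, and 7209, 7119 and 7099 in SAM2. The log2 fold change was -0.38 in SAM1 (limma adjusted p = 1.9e-07) and -0.41 in SAM2 (limma adjusted p = 1.3e-07). SAM1 and SAM2 overlapped, and their difference had a 95% interval of -0.096 to 0.048.

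*Cyp51* encodes the P450 that demethylates lanosterol (chr5:4123416-4154751, - strand). It had normalized counts of 31021, 32471 and 31358 in Empty, 19672, 20267 and 19789 in SAM1, and 21141, 21522 and 21284 in SAM2. The fall was 37.0% in SAM1 (log2 fold change -0.67, SE 0.027, limma adjusted p = 8.1e-11) and 32.6% in SAM2 (-0.57, SE 0.027, limma adjusted p = 6.0e-10). Here SAM2 lay slightly above SAM1 (0.099, limma adjusted p = 0.00635), a difference that did not pass under quantile normalization (0.044, limma adjusted p = 0.305). *Akap9*, which overlaps it on the opposite strand over 1253 bases, did not pass in SAM1 or SAM2 (0.0013 and 0.092).

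The 2 genes of control moved apart. *Insig1* (chr5:28276315-28283668, + strand), which has no overlapping gene, had normalized counts of 16389, 16403 and 16365 in Empty, 10537, 10284 and 10208 in SAM1, and 10100, 10455 and 10228 in SAM2. The Empty libraries lay close together, with a coefficient of variation of 0.119%, and every SAM library lay below them. It fell by 36.9% in SAM1 (log2 fold change -0.66, SE 0.026, limma adjusted p = 5.9e-11) and by 37.4% in SAM2 (-0.68, SE 0.026, limma adjusted p = 7.9e-11), and the difference between the lines lay within -0.067 to 0.044.

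*Srebf2*, the gene of SREBP-2 itself (chr15:82031382-82093201, + strand), had normalized counts of 27534, 26424 and 25847 in Empty, 26733, 25098 and 26325 in SAM1, and 30858, 30417 and 30849 in SAM2. SAM1 overlapped Empty, whereas all SAM2 libraries lay above both other groups. The log2 fold change was -0.030 in SAM1 (95% interval -0.099 to 0.038, limma adjusted p = 0.403) and 0.21 in SAM2 (SE 0.032, limma adjusted p = 5.5e-05). In SAM1 the value turned to 0.19 under quantile normalization (limma adjusted p = 0.00013). These are transcript levels, and cleavage of the protein was not measured by this assay.

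Across the 8 genes, the lines differed from each other in 5, with 3 higher and 2 lower in SAM2, while 60.3% of all genes differed between the lines (31.1% higher and 29.2% lower in SAM2). Taking both lines as 1 group of 6 libraries, as the study did, 5 of the 8 were lower and 1 was higher, beside 53.9% of all genes passing (27.0% lower and 26.8% higher). *Sqle* (-0.070, limma adjusted p = 0.287) and *Srebf2* (0.089, limma adjusted p = 0.357) did not pass there. Both passed as the mean of the lines in the fit with 3 groups (-0.070 and 0.089, limma adjusted p = 0.00713 and 0.0101) and, as higher values, under quantile normalization (0.12 and 0.29, limma adjusted p = 0.0364 and 0.00644). The coefficient of variation within groups was between 0.119% and 4.94% over the 8 genes and 3 groups, with a median of 1.45%.

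The order of levels also changed. Per kilobase of annotated exon, *Hmgcs1* led in Empty with 6081 ± 105 normalized counts (SD, n = 3), followed by *Cyp51* (5325 ± 128), *Idi1* (4333 ± 161), *Insig1* (3356 ± 4.0), *Srebf2* (2848 ± 91.8), *Sqle* (2755 ± 9.7), *Fdft1* (1279 ± 45.0) and *Lss* (835 ± 30.1). No neighbours in this order had overlapping libraries. In SAM1, *Hmgcs1* still led with 3919 ± 8.7 per kilobase, and *Cyp51* (3353 ± 53.1) and *Idi1* (3347 ± 36.4) overlapped. In SAM2, *Cyp51* (3590 ± 32.4) and *Srebf2* (3287 ± 27.0) stood above *Hmgcs1* (3153 ± 29.4). *Fdft1* and *Lss* were the lowest pair in all 3 groups. The lengths join the exons of all transcripts of a gene, so the order between genes depends on the annotation.

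The rest of the synthesis pathway was read next. Of 15 further synthesis enzymes, 12 were lower and 1 was higher in SAM1, with 2 not passing. In SAM2, 13 were lower, none was higher and 2 did not pass. Their median log2 fold change was -0.43 in SAM1 and -0.59 in SAM2. Together with the 6 enzymes among the 8 genes, 17 of 21 were lower in SAM1 and 17 of 21 in SAM2, beside 36.9% and 35.3% of all genes. Lower in both lines were 16 of 21, beside 26.4% of all genes. Under quantile normalization 16 were lower and 3 higher in SAM1, and 19 were lower and 2 higher in SAM2. Of all 15184 genes, 6005 were lower and 5213 higher in SAM1 in that setting, and 5620 lower and 5053 higher in SAM2.

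The mevalonate steps differed among themselves. *Mvk* (-0.72 and -0.76 in SAM1 and SAM2) and *Mvd* (-0.69 and -0.73), the mevalonate kinase and decarboxylase, fell in both lines, and their difference between the lines did not pass (-0.047 and -0.032). Between these, *Pmvk*, the phosphomevalonate kinase, was higher in SAM1 (0.42, limma adjusted p = 4.1e-06) and did not pass in SAM2 (-0.086, limma adjusted p = 0.129), and SAM2 was lower than SAM1 (-0.50, limma adjusted p = 1.5e-06). *Acat2*, which makes acetoacetyl-CoA, fell by 0.26 and 0.34 on the log2 scale, and *Fdps*, the farnesyl diphosphate synthase, by 0.19 and 0.20.

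After lanosterol, *Hsd17b7*, a sterol ketoreductase, fell the furthest of the 21 in SAM2. Its normalized counts were 6388, 6038 and 6178 in Empty, 4413, 3958 and 4345 in SAM1, and 3176, 3050 and 3113 in SAM2, with no overlap between groups. The log2 fold change was -0.55 in SAM1 and -0.99 in SAM2 (limma adjusted p = 4.5e-08 and 1.7e-10). *Tm7sf2*, a sterol reductase, showed the reverse order of lines, at 893, 985 and 953 in Empty, 442, 403 and 404 in SAM1, and 609, 678 and 593 in SAM2. It fell by 1.18 in SAM1 and by 0.59 in SAM2 on the log2 scale. *Lbr*, the other reductase of that step, fell by 0.43 and 0.37.

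Of the remaining late enzymes, *Msmo1* (-0.44 and -0.60), *Nsdhl* (-0.62 and -0.47) and *Sc5d* (-0.72 and -0.68) were lower in both lines. *Ebp*, the sterol isomerase, passed in SAM2 (-0.14, limma adjusted p = 0.0180) and not in SAM1 (-0.11, limma adjusted p = 0.0526, or 0.00478 with the replicate block). Its SAM2 call was lost without Empty replicate 2 (-0.093), SAM2 replicate 1 (-0.14) or SAM2 replicate 3 (-0.12). *Dhcr7*, the last reductase of one branch, did not pass in either line (-0.042 and -0.079).

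**Figure D2:**
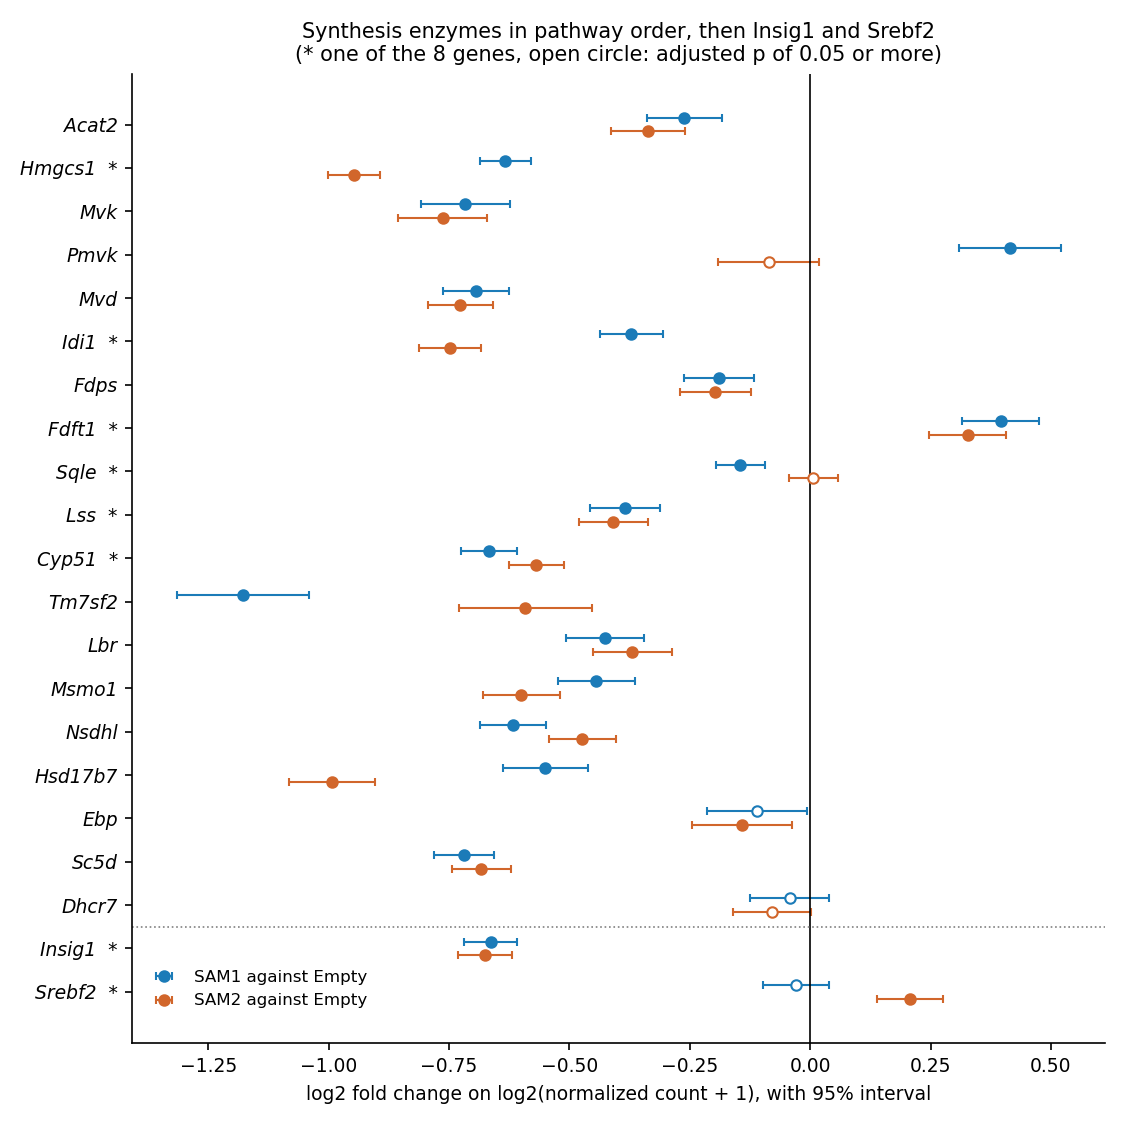
Log2 fold change against Empty (linear axis, with 95% intervals, n = 3 per group) of 19 synthesis enzymes in pathway order from top to bottom, then *Insig1* and *Srebf2*, for SAM1 (blue) and SAM2 (orange). Most points lie left of 0, *Fdft1* lies right of it in both lines, *Pmvk* only in SAM1 and *Srebf2* only in SAM2 among points that passed, and the open circles did not pass the test.

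The 8 genes were then set beside their neighbours, because chromosomes differed as a whole. On chromosome 14, which holds *Fdft1*, the median log2 fold change of the 512 other genes was 0.53 in SAM1 and 0.57 in SAM2. Of 26 genes within 2 Mb of *Fdft1*, 25 lay above 0 in each line, with medians of 0.64 and 0.79. *Fdft1* itself (0.40 and 0.33) thus lay below its chromosome's median by 0.14 and 0.24 on the log2 scale (-0.14 and -0.24).

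*Sqle* and *Srebf2* both lie on chromosome 15, where the median of the other genes was 0.19 in SAM1 and 0.32 in SAM2. Relative to it, *Sqle* stood at -0.34 and -0.31 and *Srebf2* at -0.22 and -0.11. The other chromosomes concerned had medians of -0.054 and -0.17 (chromosome 13), -0.010 and 0.026 (chromosome 10) and -0.16 and -0.14 (chromosome 5). On this relative scale all 8 genes were below their chromosome in both lines, from -0.58 to -0.14 in SAM1 and from -0.78 to -0.11 in SAM2, and all 8 were also below the median of the genes within 2 Mb. A gene lies below its chromosome's median in about as many cases as above it by construction. The part of the shifts of whole chromosomes in the values of the 8 genes was not tested.

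**Figure D3:**
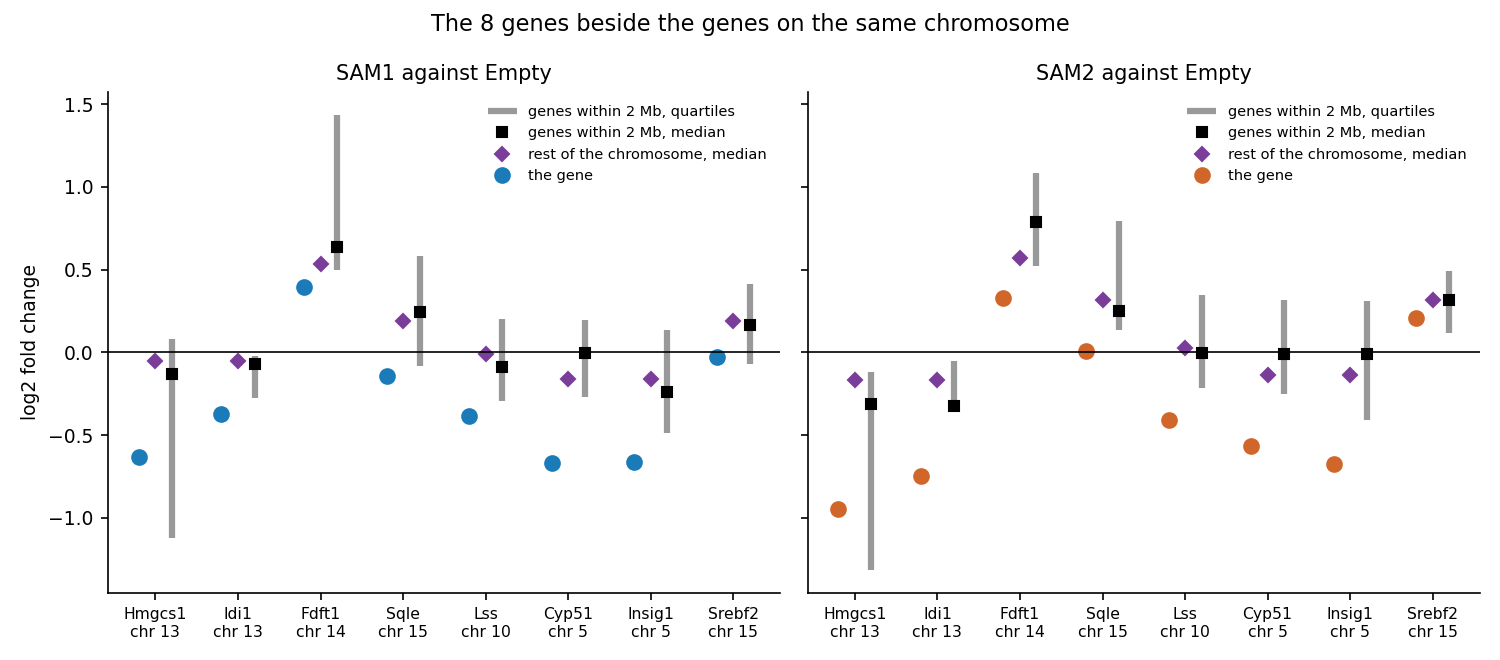
Log2 fold change against Empty of each of the 8 genes (circles) beside the median of the other genes on its chromosome (diamonds) and the median and quartiles of genes within 2 Mb (squares and grey bars), for SAM1 and SAM2. Each circle lies below its diamond, also for *Fdft1*, whose chromosome stands highest.

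The genes around the pathway were counted against the same background, in which 36.9% of all genes were lower and 37.3% higher in SAM1, and 35.3% lower and 35.2% higher in SAM2. Of 8 further genes of SREBP control, 7 were lower and 1 was higher in SAM1, while 3 were lower and 3 higher in SAM2. *Insig2*, the second INSIG gene, was lower in both lines and most in SAM1, at 8782, 9036 and 8972 normalized counts in Empty, 3415, 3217 and 3344 in SAM1, and 6518, 6388 and 6363 in SAM2. Its log2 fold changes were -1.43 and -0.48, and the lines differed by 0.95 (limma adjusted p = 3.1e-11). *Scap*, the escort of SREBP (-0.18 and -0.27), was lower, and *Srebf1*, the gene of SREBP-1, was higher (0.13 and 0.073).

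Among 10 uptake and transport genes, 7 were lower and 2 higher in SAM1, and 5 were lower and 2 higher in SAM2. *Scarb1*, the HDL receptor (-0.83 and -0.61), and *Npc2*, which moves cholesterol out of lysosomes (-0.52 and -0.70), were lower in both lines.

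Of 9 genes of efflux and esters, 5 were lower and 3 higher in SAM1, and 4 were lower and 4 higher in SAM2. *Abca1*, the exporter of cholesterol to lipid-poor apolipoprotein, had 4633, 4047 and 4522 normalized counts in Empty, 1476, 1142 and 1488 in SAM1, and 1193, 1214 and 1313 in SAM2. It fell by 1.69 and 1.83 on the log2 scale (limma adjusted p = 1.0e-09 and 7.0e-10). *Abcg1*, another exporter, was close to the floor in Empty at 1.0, 2.1 and 3.5 normalized counts, with 36.1, 37.5 and 33.2 in SAM1 and 29.7, 27.8 and 29.7 in SAM2. *Soat1*, which makes cholesterol esters (-0.32 and -0.29), and *Nr1h2*, a liver X receptor gene (-0.50 and -0.36), were lower.

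The nearest comparison is fatty acid synthesis, which SREBP-1 is known to drive. Of its 14 genes, 12 were lower and 1 was higher in SAM1 (median -0.40), and 10 were lower and 1 was higher in SAM2 (median -0.25). In the comparison of SAM2 with SAM1, 31.1% of all genes were higher and 29.2% lower. There, 8 of the 14 were higher and 2 lower, with a median of 0.11. The 21 cholesterol synthesis enzymes had 4 higher and 7 lower and a median of -0.037. No test of one list against the other was run. *Acsl3* (-0.80 and -0.64), *Scd2* (-0.41 and -0.42), *Acly* (-0.46 and -0.32) and *Me1* (-0.40 and -0.29) were lower in both lines. The isoprenoid branches, which share farnesyl diphosphate with sterols, had 5 of 11 genes lower and 2 higher in SAM1 and 6 lower and 2 higher in SAM2. *Pdss2* (-0.65 and -0.52), *Rce1* (-0.35 and -0.35) and *Dhdds* (-0.22 and -0.12) were lower there, and *Pdss1*, the partner of *Pdss2* in making the ubiquinone side chain, was higher (0.79 and 0.41).

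**Figure D4:**
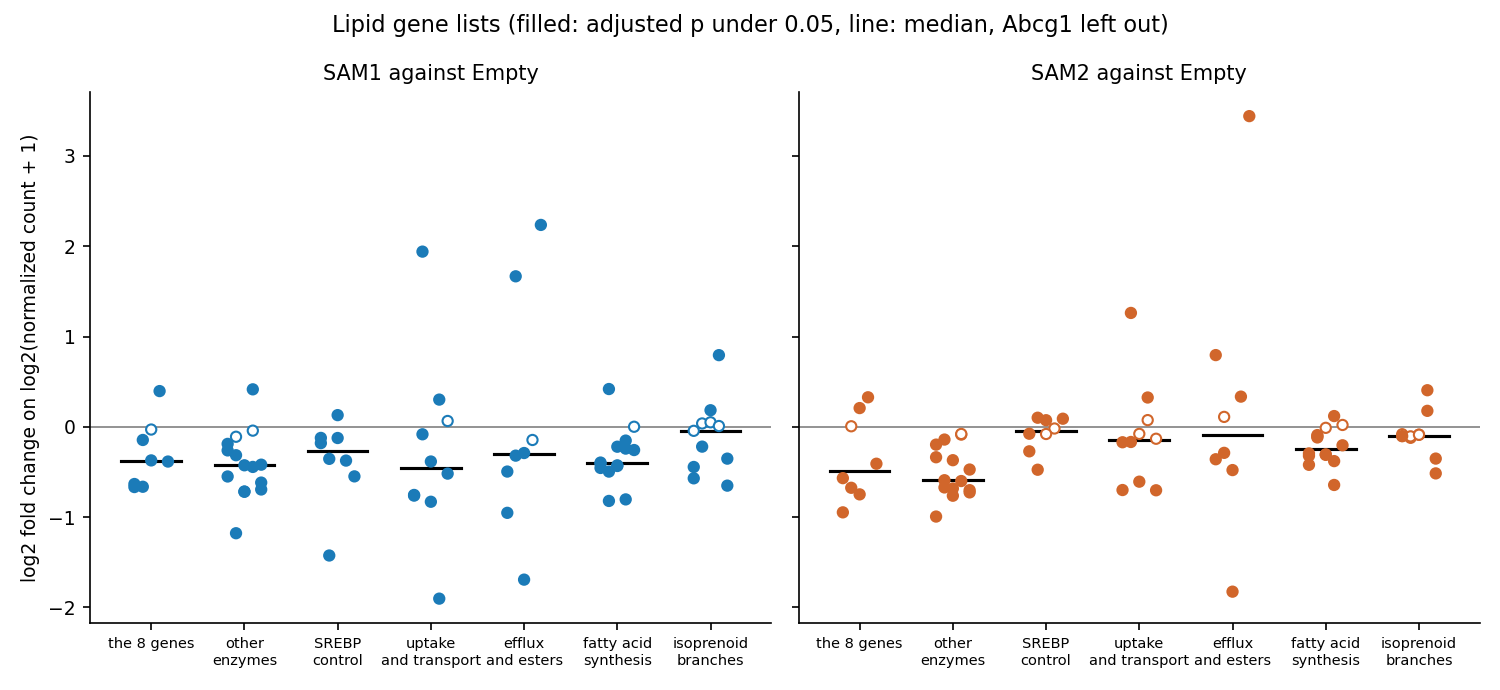
Log2 fold change against Empty of the genes of 7 lists in SAM1 and SAM2, with 1 circle per gene (filled where the adjusted p was under 0.05) and a line at the median. *Abcg1* is left out because it was near the floor in Empty, so the efflux median is that of the other genes. The 8 genes and the other synthesis enzymes lie mostly below 0 in both panels, and the efflux and uptake lists spread on either side.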

How the data were processed

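PolyA+ RNA of 9 libraries was sequenced in pairs of 43 bases from a strand-directional kit. According to the submitters' processing notes and the methods of the study, the authors checked reads with FastQC (0.11.0), aligned them to GRCm39 with GENCODE M29 by TopHat2 (3 mismatches and 20 multihits allowed) and Bowtie, used SAMtools, and counted reads per gene with HTSeq. The strand setting of the counting is not given in the sources used here. The deposited values are a signal, namely counts that the authors divided by DESeq2 size factors and no longer raw. A value over 10 in 30% or more of the libraries was the authors' condition for listing a gene, and all 15184 genes met it.

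In all 9 libraries every value was a whole multiple of 1 step (within 1e-06 reads), so the reads per gene were recovered for the depths and for the count tests. The recovery rests on steps near 1 in some libraries, nearest in SAM2 replicate 1 (0.989) and SAM1 replicate 2 (0.987). The main test was limma (3.58.1, R 4.3.3, empirical Bayes with a trend, two-sided) on log2(value + 1), with Benjamini-Hochberg adjustment over all genes and a threshold of 0.05. A fit with 3 groups gave SAM1 against Empty, SAM2 against Empty and SAM2 against SAM1, and a fit with 2 groups gave both lines against Empty. Fold changes on this scale understate changes of low genes. Alternatives were edgeR (4.0.16) and DESeq2 (1.42.0) on the recovered reads, a pseudocount of 8, a mean of at least 50, quantile normalization, the replicate block, fits on 2 groups only, each library left out, and values relative to the chromosome median. The limma and edgeR fits were tested on simulated counts with 200 genes changed in SAM1 only. There limma called 47, 36, 41 and 49 of 50 genes set at log2 fold changes of -1, -0.5, 0.5 and 1. It called 2 of 14984 unchanged genes. With so few genes changed, this run cannot test the scaling of data in which most genes pass.

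Groups came from the sample titles. The 8 genes, the lists and the motifs were chosen with earlier results of these data known, and the lists were written from general knowledge. Named were *Hnrnpk*, the 8 genes, the 15 other synthesis enzymes, the 4 genes of each other pathway list with the smallest adjusted p in both lines against Empty, and the 5 genes with the most similar profile. Some genes that this rule names are not reported here, and remain in the counts of their lists. *Ctsb*, *Washc5* and *Akap9* were added because they overlap *Fdft1*, *Sqle* and *Cyp51*. Exons of *Hmgcs1*, *Idi1*, *Lss* and *Srebf2* are also overlapped on the opposite strand. The largest overlaps there were 557, 323, 411 and 686 bases. Of these partners only *Nim1k* and *Gm48342*, at *Hmgcs1*, were in the table. *Nim1k* had means of 106, 139 and 212 normalized counts in Empty, SAM1 and SAM2, and *Gm48342* 12.0, 14.3 and 8.2. Coordinates and promoters were read from GRCm39 with GENCODE M39. Of the gene names, 14791 were found there exactly 1 time. *Abcg1* in Empty was the named value nearest the counting floor.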

Additional observations from a re-analysis of the deposited data

Results flagged for a closer look

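A difference between SAM2 and SAM1 that passed limma in the fit with 3 groups marked 22 of the named genes, while 60.3% of all genes passed the same test. Of the 8 genes 5 passed, and of the 21 synthesis enzymes 11, so a pass does not set these genes apart from the rest. Values are log2 fold changes of SAM2 minus SAM1. Of the 8 genes, *Hmgcs1* (-0.31) and *Idi1* (-0.38) were lower in SAM2, and *Sqle* (0.15), *Cyp51* (0.099) and *Srebf2* (0.24) were higher. Of the other synthesis enzymes, *Pmvk* (-0.50), *Msmo1* (-0.16) and *Hsd17b7* (-0.44) were lower in SAM2, and *Tm7sf2* (0.59) and *Nsdhl* (0.14) were higher.

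The targeted gene *Hnrnpk* (0.15) was higher in SAM2 than in SAM1. Around the pathway, *Scap* (-0.091), *Npc2* (-0.18) and *Pdss1* (-0.39) were lower in SAM2. *Insig2* (0.95), *Scarb1* (0.22), *Nr1h2* (0.14), *Acsl3* (0.16), *Acly* (0.13), *Me1* (0.10), *Pdss2* (0.14) and *Dhdds* (0.098) were higher. The labels do not say how SAM1 and SAM2 differ, so the difference between guides, clones or cultures cannot be told apart.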

How the results depend on the processing

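The counts of the 8 genes and of the 21 enzymes past the threshold, in either direction, stayed within 1.5 times their main value. This held in all 56 results under another setting and all 72 with 1 library left out. Such a count does not see a gene that turns direction. With 7 of the 8 genes passing in each line, it also had little room to rise. Quantile normalization turned *Sqle* (0.066 in SAM1 and 0.12 in both lines against Empty), *Srebf2* in SAM1 (0.19), *Hnrnpk* (0.094 in SAM1 and 0.16 in both lines against Empty) and *Sc5d* in SAM2 against SAM1 (-0.025), and moved the split of the 8 genes to 3 higher and 5 lower in SAM1 and in SAM2. It moved the median of all genes to -0.047 in SAM1 and -0.034 in SAM2, and that of the top 10% by level from -0.12 to 0.043 and from -0.086 to 0.021. Relative to the chromosome median, *Fdft1* turned to -0.14 in SAM1, -0.24 in SAM2 and -0.19 in both lines against Empty, and *Srebf2* in SAM2 to -0.11. With 1 library left out, SAM2 against SAM1 ranged from -0.025 to 0.0020 for *Insig1*, from -0.031 to 0.0052 for *Fdps* and from -0.063 to 0.0079 for *Ebp*, none of which passed. The cause was not tested.

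The labels give no shared batch or animal for a replicate number, so the numbers were not taken as pairs. The correlations that follow cannot settle whether they are. Deviations of same-numbered libraries correlated with r of 0.0024 to 0.12 (mean 0.053 over 9 pairs), against a mean of -0.027 for different numbers, and 15 of 18 comparisons were best with the own number, a hint from the data and not from the design. The replicate block left the calls of the 8 genes at 7 in SAM1, 7 in SAM2, 5 between the lines and 6 in both lines against Empty. Of the 21 enzymes it called 18 lower and 2 higher in SAM1, and 17 lower and 1 higher in SAM2. In SAM2 against SAM1 it called 8 lower and 4 higher, and in both lines against Empty 17 lower and 1 higher. It added *Ebp* in SAM1 and in both lines (-0.13) and *Acat2* between the lines (-0.076). It moved the calls over all genes to 11631 in SAM1 and 11095 in SAM2, beside 11301 and 10634 by edgeR and 10806 and 10120 by DESeq2. Between the lines it called 9812 of all genes and in both lines against Empty 7343, where the main fits called 9162 and 8179.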

Other observations

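The genes outside the lists whose log2 profile over the 9 libraries was most like the mean standardized profile of the 8 genes were *Slc35e3*, *Mmp2*, *Fam168b*, *Mlycd* and *Mtg1*, each with a Pearson r of 0.998 among 12126 genes with a mean of at least 50. The 9 libraries fall into 3 groups, so the value mostly describes 3 group means. *Mmp2*, a matrix metalloproteinase, had 104767 ± 1627 normalized counts (SD, n = 3) in Empty, 35595 ± 473 in SAM1 and 46115 ± 380 in SAM2. *Mtg1*, a GTPase of the mitochondrial ribosome, had 523 ± 18.6, 286 ± 14.8 and 321 ± 9.1. Of the 8 genes themselves, *Cyp51* (0.99), *Insig1* (0.97) and *Lss* (0.95) lay closest to their mean profile, and *Srebf2* (-0.17) and *Fdft1* (-0.97) lay away from it. Each of the 8 is itself part of that mean, which raises its own value.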
